A study of Mus musculus with 30 samples.

Results

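Olfactory bulb marker genes were examined in the forebrain of mice given clozapine, haloperidol or no drug. The genes were Doc2g, Islr, Reln, Meis2 and Eomes, taken by exact match to the gene symbol of the array platform. They are covered by 6 of the 22626 probe sets that are not array controls, and by 5 of the 12393 genes named by a single symbol. Eomes has 2 probe sets and each of the other genes has 1. All 6 probe sets had a mean of at least 4 on the log2 scale and entered the test, in which 12944 probe sets took part. The genes were chosen from log2 values of these same arrays, in an earlier look for which the exact contrast is not recorded, so their values are a description and no independent support for any pattern. RNA came from the right forebrain of 30 male C57BL mice, with 1 Affymetrix MOE430A array per mouse and no pooling. The first group of 10 mice drank clozapine, an atypical antipsychotic with a broad receptor profile, at 12 mg/kg/day. The second group of 10 drank haloperidol at 1.6 mg/kg/day, a typical antipsychotic that mainly blocks dopamine D2 receptors. The control group of 10 had untreated water. Treatment lasted 12 weeks and all groups were housed and killed alike. The labels give an age of 4 weeks without saying at which point, name the left hemisphere in 1 field against the right in the others, and name clozapine beside the haloperidol dose in 1 note. The protocol names hemispheres and cerebellum as the pieces into which each brain was divided and does not mention the olfactory bulb.

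The olfactory bulb is the first relay of smell. Axons of olfactory sensory neurons from the nose end there on mitral and tufted cells, which project to the olfactory cortex, and the output of these cells is shaped by granule and periglomerular interneurons that are renewed throughout life. Eomes (Tbr2) is a T-box transcription factor of mitral and tufted cells, Reln encodes reelin, a secreted glycoprotein made by mitral cells and also by cortical interneurons and Cajal-Retzius cells, and Meis2 is a homeodomain factor of bulb interneurons and of striatal neurons. Doc2g encodes a C2-domain protein related to regulators of vesicle release and is used as a marker of bulb projection neurons. Islr encodes an immunoglobulin and leucine-rich repeat protein that is also made by mesenchymal cells. In a piece of tissue, fewer cells of a type and less RNA per cell cannot be told apart.

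Doc2g, Eomes and Islr varied together between mice, so the bases before their transcription starts are shown. Entries for all 5 genes were found in the RefSeq promoter table on build GRCm38.p6. Each run holds the 250 bases before the start, 5′ to 3′ on the strand of the gene, and capitals mark matches, on either strand, to motifs of T-box, Meis and homeodomain factors or to the TATA box.
Doc2g, chr19:4003135-4003384, plus strand: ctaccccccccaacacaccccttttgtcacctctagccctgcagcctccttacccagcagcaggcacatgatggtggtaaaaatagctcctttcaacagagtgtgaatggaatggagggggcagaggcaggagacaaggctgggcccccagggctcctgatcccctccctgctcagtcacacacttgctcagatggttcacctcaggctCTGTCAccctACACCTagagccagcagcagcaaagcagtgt
Eomes, chr9:118477939-118478188, plus strand: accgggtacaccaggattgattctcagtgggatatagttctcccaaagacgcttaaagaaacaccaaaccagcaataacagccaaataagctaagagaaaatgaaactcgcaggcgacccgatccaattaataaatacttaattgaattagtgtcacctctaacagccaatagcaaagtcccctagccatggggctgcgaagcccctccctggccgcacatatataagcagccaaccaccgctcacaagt
Islr, chr9:58158555-58158804, minus strand: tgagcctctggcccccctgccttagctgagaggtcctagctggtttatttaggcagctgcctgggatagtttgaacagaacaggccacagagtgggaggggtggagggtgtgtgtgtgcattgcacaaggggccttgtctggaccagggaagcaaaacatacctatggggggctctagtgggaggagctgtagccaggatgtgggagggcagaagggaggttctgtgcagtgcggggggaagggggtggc

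The Doc2g window held 1 match to the T-box motif AGGTGT, from base -31 to -26 before the start. It also held 1 match to the Meis motif TGACAG, from base -41 to -36, and both matches were on the opposite strand and did not overlap. Of 32851 windows of this length in the table, 11.8% held the T-box motif and 15.9% the Meis motif. The homeodomain motif, TAATTA, was in 4.84% of the windows. The TATA box, TATAAA, was in 12.4%. The windows of Eomes and Islr held none of the 4 motifs. Their GC content was 57.6% for Doc2g, 46.4% for Eomes and 59.6% for Islr, against a median of 52.4% over all windows, and they held 0, 8 and 1 CpG against a median of 6. These matches are letters in a window and were not tied to binding or to the expression values.

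The arrays themselves fell into sets that mix the treatments. Average-linkage clustering on the correlation over the 12944 probe sets, cut into 7 sets as in an earlier look at these data, left 11 arrays in cluster A, 8 in cluster B, 7 in cluster C and 4 on their own, which were clozapine 7, haloperidol 2, haloperidol 7 and control 1. The groups were spread unevenly, with 3, 1 and 5 clozapine arrays, 5, 3 and 0 haloperidol arrays and 3, 4 and 2 control arrays in A, B and C. Haloperidol 2, haloperidol 7 and control 1 correlated least with their groups, and values without these 3 arrays are given beside the results. The log2 difference between 3' and 5' control probe sets, a sign of RNA degradation, was taken as the mean of those for Gapdh and beta-actin. It was widest in control 1, at 4.09, and in haloperidol 7, at 2.45, and lay between 0.47 and 1.36 in the other 28 arrays.

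Doc2g differed more between mice than between treatments. Its log2 value was lowest at 4.23, had a median of 6.15 and was highest at 6.87 in clozapine-treated mice. In haloperidol-treated mice it ran from 4.49 over a median of 6.17 to 9.06, and in control mice from 3.94 over 6.06 to 7.20. The groups overlapped over most of their range, and the extremes of the whole series were haloperidol 2 at the top and control 1 at the bottom. Group means were 5.90 ± 0.96, 6.26 ± 1.20 and 5.92 ± 1.03 (SD, n = 10 each) for clozapine, haloperidol and control. The span over all 30 mice was 34.6-fold, and 7.85-fold without haloperidol 2, haloperidol 7 and control 1, where clozapine 10 was lowest and control 9 highest.

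Eomes also differed widely between mice of one group. The probe set with the higher mean gave 3.80, 5.48 and 6.77 as lowest, median and highest log2 value in clozapine-treated mice, 4.53, 5.36 and 7.01 in haloperidol-treated mice and 3.85, 5.46 and 5.73 in control mice. Haloperidol 2 was again the highest of the 30 mice, clozapine 10 was lowest and control 1 next to lowest. The second Eomes probe set gave 2.05, 4.46 and 4.97 in clozapine-treated mice, 3.26, 4.65 and 5.40 in haloperidol-treated mice and 3.53, 4.53 and 5.62 in control mice. Its order of mice was a different one, with control 2 highest and haloperidol 2 sixth.

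Islr had a lowest, median and highest log2 value of 6.53, 6.99 and 8.31 in clozapine-treated mice, 6.52, 7.42 and 9.14 in haloperidol-treated mice and 6.52, 7.14 and 7.75 in control mice. The lowest values of the 3 groups were nearly the same, and haloperidol 2 was the highest mouse of all. Means were 7.27 ± 0.65 under clozapine, 7.50 ± 0.75 under haloperidol and 7.17 ± 0.43 in controls (SD, n = 10 each).

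Reln varied least among these genes. It ran over 8.97, 9.34 and 9.73 in clozapine-treated mice, 9.23, 9.37 and 9.89 in haloperidol-treated mice and 8.85, 9.36 and 9.51 in control mice, again as lowest, median and highest log2 value. The whole span was 2.05-fold, from control 8 to haloperidol 3, and haloperidol 2 stood in the middle, in place 14 of 30.

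Meis2 gave 8.32, 9.06 and 10.17 in clozapine-treated mice, 8.65, 9.40 and 10.37 in haloperidol-treated mice and 8.63, 9.51 and 10.02 in control mice. Here haloperidol 2 was among the low mice, in place 26 of 30. The span was 4.15-fold, from clozapine 9 to haloperidol 4.

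**Figure D1:**
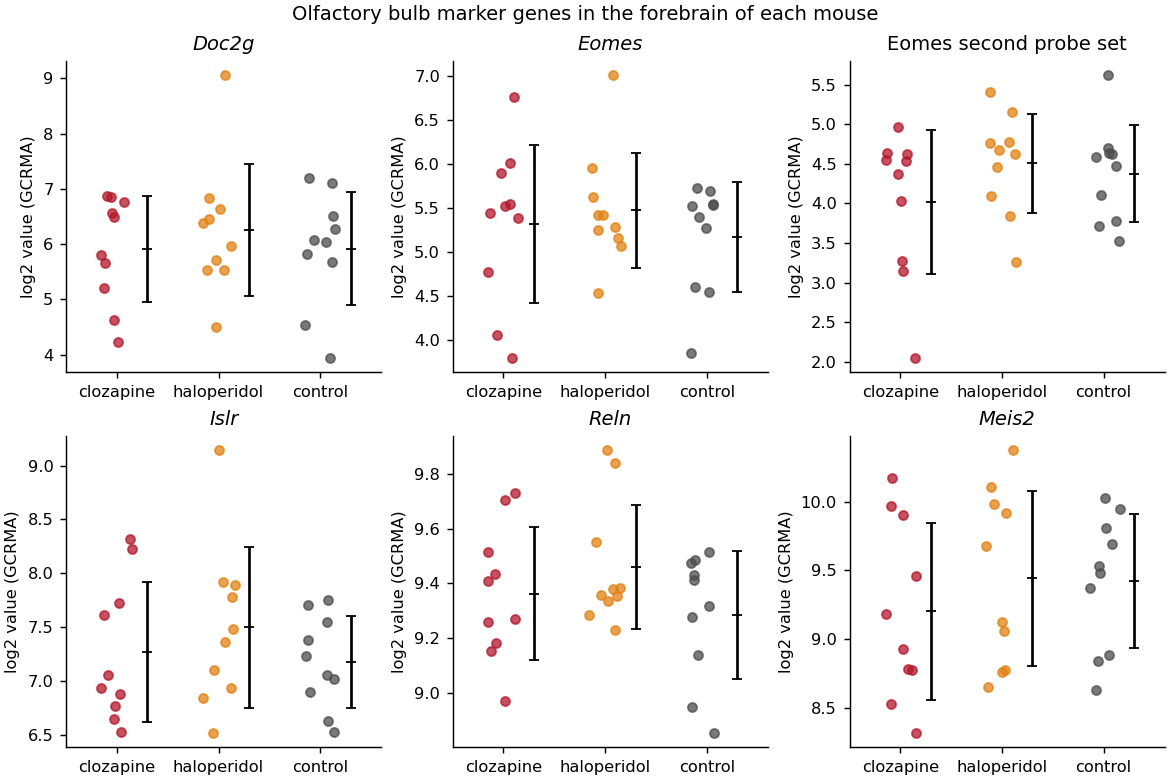
Log2 value of each probe set (vertical axis, GCRMA scale) in the clozapine, haloperidol and control mice, 1 point per mouse, with the mean and SD of each group beside the points. The groups overlap in every panel, and a single haloperidol mouse lies above all others for Doc2g (9.06), Islr (9.14) and the first Eomes probe set (7.01).

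The comparison of each drug with untreated mice asked whether long treatment changed these transcripts. In limma's test, with p-values adjusted over the 12944 probe sets by the Benjamini-Hochberg method, 0 of the 6 probe sets passed an adjusted p of 0.05 for clozapine against control, where 0% of all probe sets tested did. For haloperidol against control and for clozapine against haloperidol it was also 0 of 6, beside 0% of all. At an unadjusted p under 0.05 it was 0 of 6 in each comparison, beside 4.35%, 2.3% and 3.14% of all probe sets for clozapine against control, haloperidol against control and clozapine against haloperidol. The adjusted p of the 6 probe sets lay between 0.965 and 0.9999 over the 3 comparisons.

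For clozapine against control, the difference in mean log2 value was -0.01 for Doc2g (SE 0.45, 95% confidence interval -0.94 to 0.92), or 0.992-fold. Eomes differed by 0.15 (-0.50 to 0.80), and its second probe set by -0.36 (-1.002 to 0.29). Both intervals included 0. Without control 1 the Eomes difference was 0.0037, that of its second probe set -0.42 and that of Doc2g -0.23. Islr differed by 0.10 (-0.46 to 0.65), Reln by 0.08 (-0.15 to 0.31) and Meis2 by -0.22 (-0.74 to 0.31). The intervals leave room for changes of up to 1.89-fold in Doc2g, and of 1.24-fold in Reln, in the upward direction.

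For haloperidol against control, all 6 differences were above 0, as were 43.5% of all probe sets tested. Doc2g differed by 0.34 (SE 0.45, 95% confidence interval -0.59 to 1.27), Islr by 0.32 (-0.23 to 0.87) and Eomes by 0.30 (-0.34 to 0.95). The Doc2g difference rested on single mice. It was 0.03 without haloperidol 2, 0.12 without control 1, 0.54 without haloperidol 7, and -0.01 without all 3. Without haloperidol 2 the Islr difference was 0.14 and that of Eomes 0.13, and without control 1 that of Eomes was 0.16. With the array cluster as a block the Doc2g difference was -0.05 and that of Eomes -0.085. Reln differed by 0.17 (-0.06 to 0.41), Meis2 by 0.02 (-0.50 to 0.55) and the second Eomes probe set by 0.13 (-0.52 to 0.77).

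For clozapine against haloperidol the differences were below 0 in all 6 probe sets, and above 0 in 60.7% of all probe sets tested. They were -0.35 for Doc2g (SE 0.45, 95% confidence interval -1.28 to 0.57), -0.23 for Islr (-0.78 to 0.32) and -0.24 for Meis2 (-0.77 to 0.29). Reln differed by -0.10 (-0.33 to 0.14), Eomes by -0.15 (-0.80 to 0.49) and its second probe set by -0.49 (-1.13 to 0.16). Without haloperidol 2 the differences were -0.043 for Doc2g, -0.045 for Islr and 0.018 for Eomes, so that the sign of Eomes turned. Without haloperidol 7 that of Doc2g was -0.55. The comparisons share groups, so the signs in one are tied to those in the others.

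**Figure D2:**
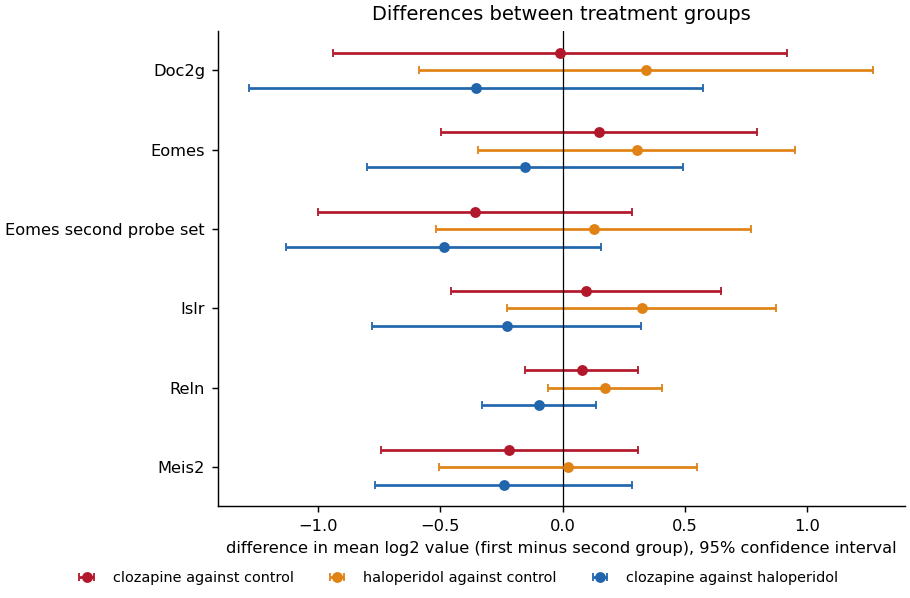
Difference in mean log2 value (horizontal axis, first minus second group) with its 95% confidence interval, for each probe set and each of the 3 comparisons. Every interval includes 0, and those of Reln (SE 0.11) are the narrowest while those of Doc2g (SE 0.45) are the widest.

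Differences between mice of one group were wide for most of these genes. The SD within groups was 1.07 on the log2 scale for Doc2g, which was larger than that of 91% of the 500 probe sets nearest to it in mean value. It was 0.74 for Eomes (larger than 81.2% of its neighbours in mean), 0.73 for its second probe set (87.2%), 0.62 for Islr (73.4%) and 0.59 for Meis2 (82.6%). Reln stood at the other end, with an SD of 0.24, larger than only 6.8% of its neighbours.

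Over all 30 mice, Doc2g, Eomes and Islr tended to be high and low together. There were exceptions. Clozapine 4 was in place 5 for Doc2g but 23 for Islr, and haloperidol 6 was in place 23 for Doc2g but 4 for Islr. After group means were removed, Pearson's r over 30 mice was 0.82 between Doc2g and Eomes (Spearman's rho 0.83), which is higher than the r of Doc2g with 99.96% of the probe sets tested. It was 0.74 between Doc2g and Islr (rho 0.71; above 99.93%) and 0.69 between Islr and Eomes (rho 0.71; above 99.8%). These 3 of the 10 pairs passed a two-sided permutation test of mice within groups, with unadjusted p of 1e-05, 2e-05 and 8e-05 and p adjusted over the 10 pairs of 0.0001, 0.0001 and 0.000267. The value of 1e-05 is the smallest that 100000 permutations can give. With the second Eomes probe set in place of the first, Islr and Eomes did not pass (r = 0.28, adjusted permutation p = 0.309). Doc2g and Eomes then still passed (r = 0.65, adjusted permutation p = 0.000167), and so did Meis2 and Eomes (r = 0.69, adjusted permutation p = 0.0001). Because the genes were chosen with results of the same arrays known, these p-values are no independent evidence.

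The shared variation did not rest on the outlying mice alone. Without haloperidol 2 and control 1, the mice farthest from the median of Doc2g, r was 0.74 between Doc2g and Eomes and 0.68 between Doc2g and Islr. Between Islr and Eomes it was 0.58 without clozapine 7 and haloperidol 2, the mice farthest from the median of Islr. Without haloperidol 2, haloperidol 7 and control 1, the 3 values were 0.77, 0.66 and 0.62, and Reln joined the other genes: its r was 0.64 with Doc2g, 0.63 with Eomes and 0.47 with Islr. Over all 30 mice the same 3 values for Reln were 0.23, 0.37 and 0.26, with adjusted permutation p of 0.347, 0.131 and 0.309. Haloperidol 7 and control 1 were low in Doc2g, in places 28 and 30 of 30, and high in Reln, in places 2 and 7.

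The correlations were also computed within the array clusters. In cluster B all 10 pairs of the 5 genes had r between 0.67 and 0.93, and in cluster C between 0.51 and 0.93, Meis2 and Reln included. In cluster A the 10 values lay between -0.43 and 0.55 with a median of 0.01, and none of the pairs passed the permutation test. There r was 0.02 between Doc2g and Islr, 0.55 between Doc2g and Eomes and 0.53 between Islr and Eomes. An r of at least 0.5 with Doc2g was found for all 4 other genes in B, beside 7.47% of probe sets tested, for all 4 in C, beside 7.42%, and for Eomes alone in A, beside 10.7%. With 8 arrays in B, 7 in C and 11 in A, each of these values is loosely fixed, and whether r differs between the clusters was not tested. The SD of Doc2g was 0.41 in A, 0.91 in B and 1.01 in C, and that of Eomes was 0.24, 0.51 and 1.05. For Islr it was 0.44, 0.50 and 0.59, and for Reln 0.24, 0.21 and 0.25. The part of these spreads in the values of r was not tested.

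**Figure D3:**
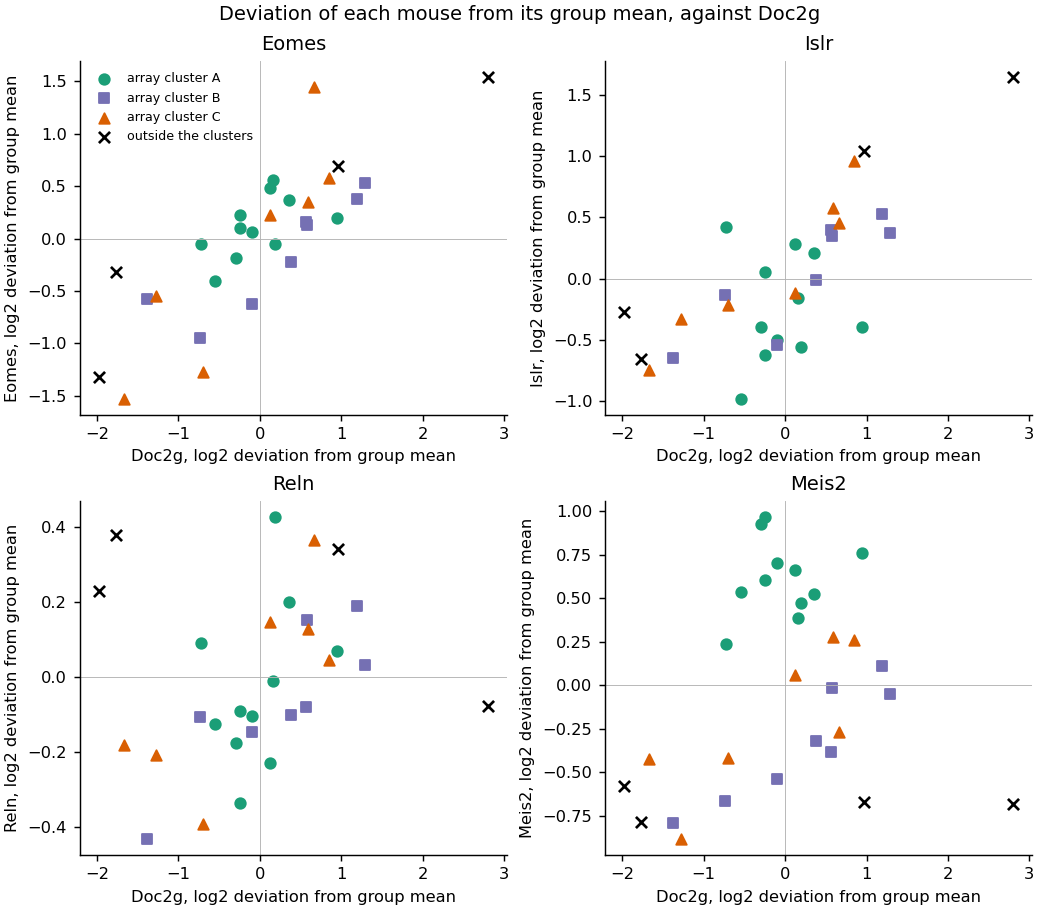
Deviation of each mouse from its group mean (log2) for Eomes, Islr, Reln and Meis2 on the vertical axes, against that of Doc2g on the horizontal axis, with array clusters A (n = 11), B (n = 8), C (n = 7) and the 4 other arrays marked. Eomes (r = 0.82) and Islr (r = 0.74) climb with Doc2g, Reln does so apart from a few arrays, and Meis2 is split by cluster, with all arrays of A above 0.

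Meis2 went with the array clusters. It lay between 9.68 and 10.37 in the 11 arrays of cluster A, against 8.63 to 9.53 in the 8 arrays of B, 8.32 to 9.69 in the 7 of C and 8.53 to 8.84 in the 4 others. The values of A and B did not overlap, and 1 array of C reached into the range of A. With the 4 other arrays left out, the clusters took up 68.8% of the variance of Meis2, against a median of 40.8% over all probe sets tested. This was more than for 84.5% of them. The clusters were cut from these same probe sets, Meis2 included, so the share is a description. The share was 46.0% for the second Eomes probe set, but 8.0% for Doc2g, 6.2% for the first Eomes probe set, 5.4% for Islr and 1.4% for Reln. Meis2 averaged 9.67 ± 0.49 (SD, n = 18) in replicates numbered 1 to 6 and 8.88 ± 0.35 (n = 12) in those numbered 7 to 10. All arrays of cluster A are numbered 1 to 6, and those of B, apart from clozapine 1, are numbered 7 to 10. The split by replicate number and that between A and B therefore largely coincide, while C holds numbers of both ranges. Whatever separates the clusters thus moves with Meis2, and its part in the r of Meis2 with other genes was not tested. The second Eomes probe set shared more with Meis2 (r = 0.69) than with Islr (r = 0.28), and its r with Doc2g was 0.65.

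RNA quality was set beside the genes, and none passed the adjusted threshold. The 3' minus 5' difference had an r of -0.40 with Doc2g (rho -0.13), 0.38 with Reln (rho 0.27) and -0.38 with Meis2 (rho -0.31) over 30 mice, with permutation p of 0.0399, 0.0398 and 0.0132 and p adjusted over the 5 genes of 0.0666, 0.0666 and 0.0658. Without haloperidol 7 and control 1 the values were 0.15, 0.22 and -0.29. For Doc2g they were 0.08, 0.01 and -0.09 within clusters A, B and C. With the quality measure removed by regression, r stayed at 0.81 between Doc2g and Eomes and at 0.78 between Doc2g and Islr. The part of RNA quality in the pattern was not tested further.

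Genes whose pattern over the 30 mice was most like that of the members were listed by r after removal of group means. For Doc2g these were Gpsm1 (r = 0.92), a regulator of G-protein signalling, Calb2 (0.85), the calcium-binding protein calretinin of many bulb interneurons, the second Gpsm1 probe set (0.84), Kank3 (0.82) and Pcbp3 (0.82), an RNA-binding protein. Within clusters A, B and C the r of Gpsm1 with Doc2g was 0.72, 0.90 and 0.92, and that of Calb2 was 0.50, 0.92 and 0.74. For Eomes they were Cdhr1 (0.83), a cadherin of mitral and tufted cells, S100a5 (0.79), a calcium-binding protein of olfactory sensory neurons, Dlx1 (0.79), a homeodomain factor of forebrain interneurons, Kank3 (0.73) and Th (0.71), the tyrosine hydroxylase of dopamine neurons. The r of Cdhr1 with Eomes was 0.60, 0.72 and 0.97 within A, B and C.

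For Islr the nearest genes were Ttc39c (0.81), Gm13889 (0.76), Wbp1 (0.75), the spermine oxidase Smox (0.75) and C1qc (0.74), a complement component of microglia, with Calb2 at the same rounded value (0.74). For Reln they were a probe set of Dcx (0.76), the doublecortin of immature neurons, Tusc3 (0.75), Abi3bp (0.69), Ptpro (0.69) and Mtm1 (0.69). The Dcx probe set with the highest mean of its 4 had an r of 0.00136 with Reln, so the result does not hold for every probe set of that gene. For Meis2 they were Btg1 (0.92), Mau2 (0.91), the splicing factor Sfpq (0.91), Gclc (0.91) and Rdh11 (0.90). The r of Btg1 with Meis2 was -0.32 within cluster A, against 0.90 in B and 0.86 in C.

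**Figure D4:**
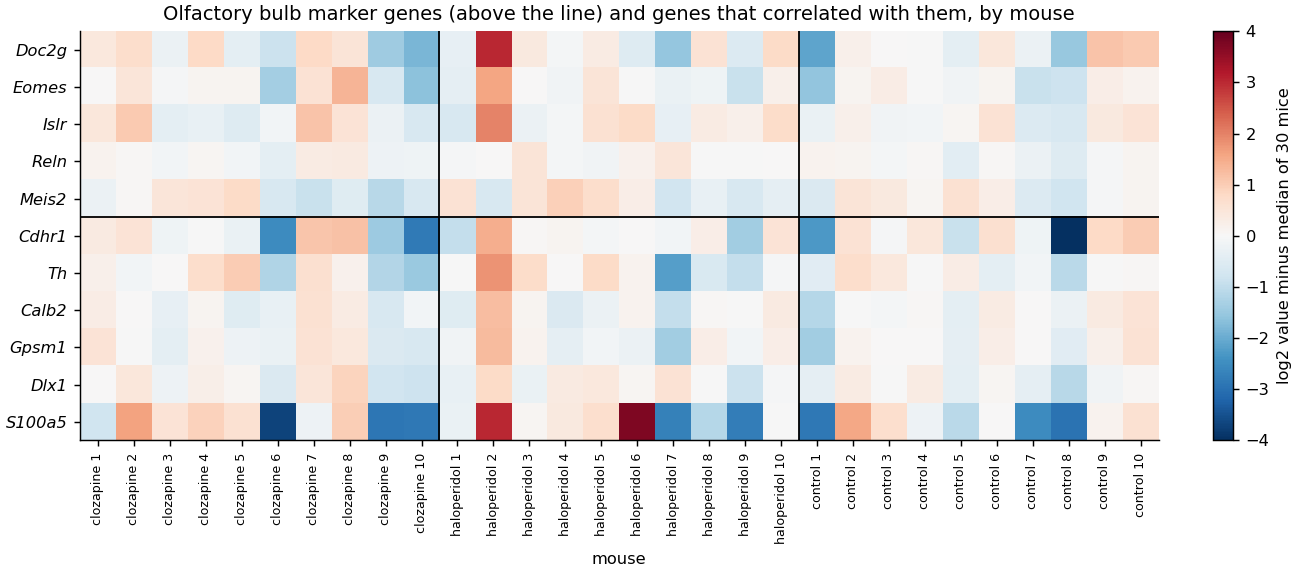
Log2 value minus the median of 30 mice (colour) for the 5 bulb marker genes above the line and 6 genes that correlated with them below it, with clozapine, haloperidol and control mice from left to right. Haloperidol 2 is highest for Doc2g, Eomes, Islr, Cdhr1, Th, Calb2 and Gpsm1, and clozapine 10, control 1 and control 8 are low in most rows.

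Cdhr1, the gene nearest to Eomes, had a wide span. It was 3.15 in control 8, 4.36 in clozapine 10, 4.67 in clozapine 6 and 4.89 in control 1, against a median of 7.18 over all mice and 8.65 in haloperidol 2. The mice lowest in Cdhr1 were also among the lowest in Eomes, with clozapine 10 in place 30, control 1 in place 29, clozapine 6 in place 28 and control 8 in place 25 of 30. They came from the clozapine and the control group. Next lowest in Cdhr1 were clozapine 9 (5.73) and haloperidol 9 (5.80), which were in places 24 and 27 of 30 for Eomes.

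Other bulb genes were taken as lists. Of 9 tested genes of mitral and tufted cells, 1 had an r of at least 0.5 with Doc2g, which was Cdhr1 (0.80), beside 5.72% of all probe sets tested. Of 15 tested genes of granule and periglomerular interneurons and their immature forms it was 5: Calb2 (0.85), Cacng5 (0.76), Th (0.73), Dlx1 (0.60) and Pbx3 (0.51). Of 9 tested genes of ensheathing cells and sensory axons it was 2, S100a5 (0.68) and Fabp7 (0.58). Without haloperidol 2, haloperidol 7 and control 1 the counts were 1 of 9, 6 of 15 and 3 of 9, beside 0.294% of all. With Eomes in place of Doc2g the counts were 1, 5 and 2, beside 0.556%, and without these 3 arrays 1, 4 and 2, beside 0.34%. Of the genes counted, Cdhr1, Dlx1, Calb2, S100a5 and Th are also among the nearest genes above.

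The other 8 tested projection neuron genes had an r under 0.5 with Doc2g. Slc17a6, a vesicular glutamate transporter, had an r of -0.53 with Doc2g, Ntng1 of -0.48, Thy1 of -0.10 and Tbr1 of -0.19. The rest of this list went both ways, with Nrp1 at -0.43, Cck at 0.45, Uchl1 at 0.38 and Kcna2 at 0.25. The glutamate decarboxylases of interneurons throughout the forebrain had r of 0.06 (Gad2) and 0.01 (Gad1), the proenkephalin gene Penk had -0.14 and Cd24a -0.31. Of the ensheathing cell and sensory list, Gng13 had 0.00, Sox10 0.27, Matn2 -0.24 and Npy 0.19. The median r with Doc2g was -0.10 for the projection neuron list, 0.06 for the interneuron list and 0.27 for the ensheathing cell list, against -0.01 over all probe sets tested.

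**Figure D5:**
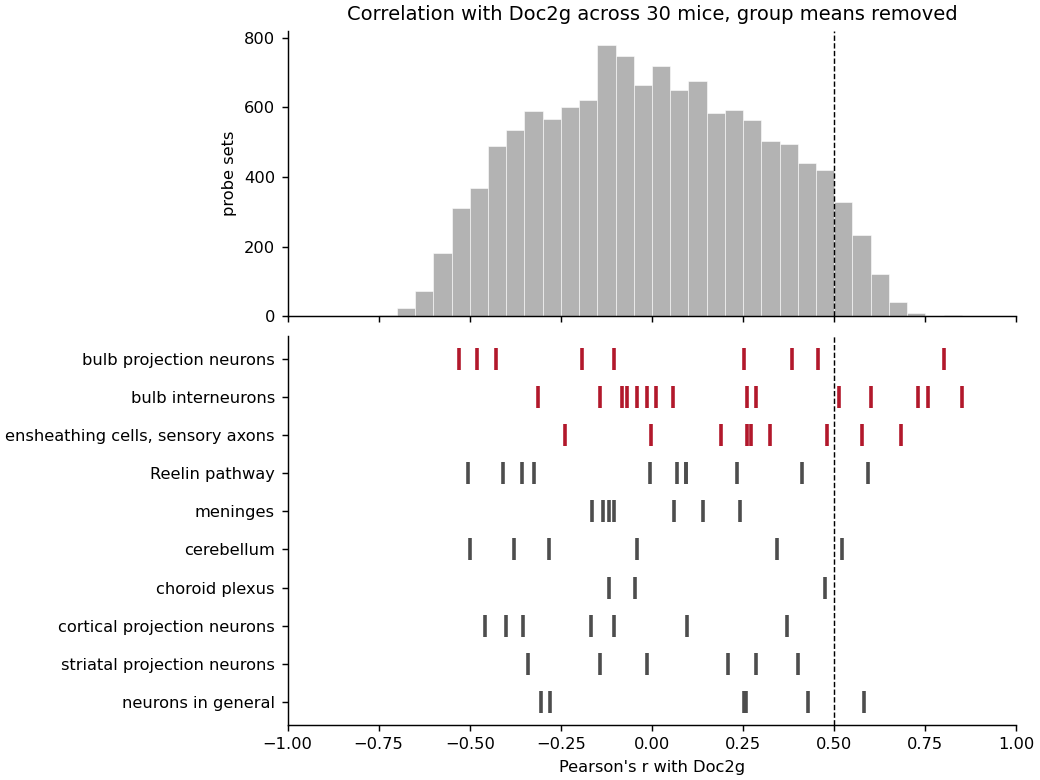
Number of probe sets (upper panel, vertical axis) by Pearson's r with Doc2g over 30 mice (horizontal axis), and the r of each tested gene of the bulb lists (red) and of the other lists (grey) below it. Beyond the dashed line at 0.5 lie 5.72% of all probe sets, and 1 of 9, 5 of 15 and 2 of 9 genes of the 3 bulb lists.

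No gene of these lists passed the adjusted threshold of limma's test in any of the 3 comparisons. At an unadjusted p under 0.05 for clozapine against control there were 0 of 9 projection neuron genes, 1 of 15 interneuron genes and 1 of 9 ensheathing and sensory genes, beside 4.35% of all probe sets. For haloperidol against control it was 1 gene in each of these lists, beside 2.3% of all. The smallest p was that of Gng13, a G-protein gamma subunit of sensory neurons, with a difference of 0.63 for clozapine against control (SE 0.22, adjusted p = 0.9997) and 0.58 for haloperidol against control. Gng13 was highest in haloperidol 6 (10.35) and haloperidol 2 (10.21), against 7.56 to 9.75 in the other 28 mice. The part of these mice in the haloperidol difference was not tested. Gad2 differed by -1.34 for clozapine against control (SE 0.51, adjusted p = 0.9997), and Penk by 0.33 for haloperidol against control (SE 0.13, adjusted p = 0.9999). The median difference for clozapine against control was -0.02 for the projection neuron list, -0.03 for the interneuron list and 0.17 for the ensheathing cell list, against 0.02 over all probe sets tested. For haloperidol against control the medians were -0.06, 0.02 and 0.10, against -0.03 over all.

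Reelin binds the receptors Vldlr and Lrp8 and acts through phosphorylation of Dab1 by Src-family kinases. Of 12 further genes of this pathway, all were measured, 11 were tested and 0 were called in any comparison. At an unadjusted p under 0.05 it was 0 of 11 for clozapine against control, 2 for haloperidol against control and 2 for clozapine against haloperidol, beside 4.35%, 2.3% and 3.14% of all probe sets. The receptor Vldlr differed by 0.29 (SE 0.24) for clozapine against control, and Dab1 by 0.09 (SE 0.15). Pafah1b1, the LIS1 protein of neuronal migration, differed by -0.36 (SE 0.17, adjusted p = 0.9999) for haloperidol against control, and the integrin Itga3 by 0.34 (SE 0.15, adjusted p = 0.9999). For Pafah1b1, haloperidol 2 stood apart at 8.63, against 9.55 to 10.36 in the other haloperidol-treated mice. The part of this mouse in the difference was not tested. Src differed by 0.39 (SE 0.16, adjusted p = 0.965) for clozapine against haloperidol, and the adaptor Crkl by -0.38 (SE 0.24). An r of at least 0.5 with Reln was found for 0 of the 11 genes, beside 2.44% of all probe sets tested, a share at which a list of this size would hold few such genes or none.

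Markers of other tissues that the piece could hold were set beside Doc2g. Member genes were left out of these lists, Islr (r = 0.74 with Doc2g) from the meningeal and Meis2 (r = 0.21) from the striatal one. An r of at least 0.5 was found for 0 of 7 tested genes of meninges and fibroblasts and 0 of 3 of choroid plexus. It was found for 0 of 7 of cortical projection neurons and 0 of 6 of striatal projection neurons. For cerebellum it was 1 of 6 (Cbln1), and for general neuronal genes 1 of 6 (Tubb3). Of all probe sets tested 5.72% had such an r, a share at which lists of this size would hold few such genes or none. Cbln1 and Tubb3 fell below 0.5 without haloperidol 2, haloperidol 7 and control 1. The summed level of the meningeal list, in which Igf2 and Fmod had the highest means, had an r of -0.03 with Doc2g. For the lists of cerebellum (Calb1 and Pvalb highest), choroid plexus (Ttr and Folr1), cortex (Mef2c and Lamp5), striatum (Penk and Tac1) and neurons in general (Snap25 and Eno2) this r was -0.36, -0.11, -0.40, -0.17 and 0.13.

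The list of Cajal-Retzius cells, which make reelin at the surface of the cortex, shares Calb2 with the bulb. Calb2 was its only tested gene apart from Reln, which was left out of the list as a member. Ebf2, Trp73 and Cxcr4 had medians of 2.96, 2.26 and 2.92, below the limit for testing. The summed level of the list ran from 360 to 813 in clozapine-treated mice, from 296 to 1258 in haloperidol-treated mice and from 264 to 779 in control mice, on a linear scale, and had an r of 0.85 with Doc2g. Calb2, with a median log2 value of 9.02, makes up most of this sum. Its own r with Doc2g was also 0.85, so the summed level restates Calb2 and does not describe the list. No gene of the dentate granule cell list (Dsp and Prox1 highest) or of the blood list (Slc4a1 and Hba-a1) reached the limit.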

How the data were processed

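The deposited values of the 30 arrays are on the log2 scale. The submitters' processing notes name GCRMA, a method that corrects background by probe sequence and narrows differences near background. Its version is not given in the sources used here. The number of arrays limits the precision. Differences were tested on the deposited log2 values with limma 3.58.1 in R 4.3.3 (lmFit, eBayes; 30 arrays, 27 residual degrees of freedom) over 12944 probe sets with a mean of at least 4, and tested on simulated data. Symbols came from the platform annotation, updated through RefSeq: 20380 probe sets had 1 symbol, 691 several and 1555 none. Correlations used 100000 permutations within groups, all permutations for 8 or fewer arrays, the probe set of a gene with the highest mean, and Python 3.11.15. Members and lists were chosen with earlier results of these data known. Named genes were the members, the 5 probe sets with 1 symbol nearest to each by r, up to 4 genes of smallest p per bulb or reelin list and the 2 of highest mean in other lists. Vldlr, Dab1, the genes named with their r in the lists, and the genes of the nasal mucosa were named after their values were seen.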

Additional observations from a re-analysis of the deposited data

Results flagged for a closer look

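For each of 54 probe sets, each group of 10 mice was tested for a sample far from the rest, and in 24 of the 162 cases a sample stood apart. Chance marks about 1 group in 20, but many of these probe sets were picked for values that stood out, the mucosal genes among them, so the count cannot be set against that share.

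Haloperidol 2 stood apart within its group for several genes. It was highest for Doc2g, at 9.06 against 4.49 to 6.83 in the other 9 haloperidol-treated mice, for the second Gpsm1 probe set (8.68), Kank3 (7.33), Ttc39c (6.995), C1qc (8.26) and the glial factor Sox10 (9.58). It was lowest for Pafah1b1 (8.63). Haloperidol 2 was also the array with the most probe sets that lay over 1 log2 unit above every other array, 145, against 54 in haloperidol 7, 38 in control 1 and 36 in haloperidol 6.

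Haloperidol 6 stood apart for genes of the olfactory mucosa. Omp, the olfactory marker protein of mature sensory neurons, was 8.83 in haloperidol 6, against 4.16 in haloperidol 2 and 2.56 to 3.85 in the other 28 mice. Its second probe set gave 8.25, 6.40 and 2.03 to 3.92 for the same mice. Cnga2, a subunit of the transduction channel, was 4.81 in haloperidol 6. Cyp2g1, a cytochrome P450 of the olfactory mucosa, was 8.75 in haloperidol 6 and 5.40 in haloperidol 2, against 1.83 to 2.10 in the other 28 mice. Cyp2f2 was 9.17 and 4.80, against 1.77 to 1.99, and Cbr2 was 8.77 and 6.30, against 1.83 to 2.14. S100a5, counted above among the bulb list genes that correlated with Doc2g and Eomes, was also highest in these mice. It was 9.84 in haloperidol 6 and 9.12 in haloperidol 2, against 2.40 to 7.71 in the other 28 mice. Bpifa1, a secreted airway protein, was 10.62 in haloperidol 6 and Gpx6 was 7.68, against 2.91 and 1.80 in haloperidol 2. In all, 36 probe sets were over 1 log2 unit above every other array in haloperidol 6, of which 3 had a mean high enough for the test, and haloperidol 2 was second highest in 13. Among the bulb marker genes, haloperidol 6 was in place 23 of 30 for Doc2g (5.54), 16 for Eomes (5.42), 12 for Meis2 (9.68), 5 for Reln (9.55) and 4 for Islr (7.92). The labels name forebrain as the tissue, and the source of these transcripts was not tested.

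Smaller departures were seen elsewhere. Haloperidol 7 was high for Abi3bp (5.58) and Tbr1 (9.35). Control 1 was low for Gpsm1 (7.05), control 8 for Dlx1 (5.85) and control 5 for Slc17a6 (8.48). Control 10 was high for Omp (3.85) and clozapine 5 for Bpifa1 (3.94). Clozapine 3 was highest of its group at values near background for Cnga2 (2.46), Gpx6 (1.92), Cyp2f2 (1.99) and Cyp2g1 (2.10).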

How the results depend on the processing

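Of the recomputed differences of the 6 probe sets, none passed the threshold, 199 kept their direction and 11 changed sign. Array weights gave 1731 calls (13.4%) for clozapine against control, none of them a bulb marker gene; the cluster block gave 1 for haloperidol against control, Eif3a. All other alternatives, the replicate block included, gave 0 calls. After removal of group means, arrays of the same replicate number had a mean r of 0.09 between clozapine and control. It was 0.23 between haloperidol and control and 0.29 between clozapine and haloperidol. Between arrays of other numbers it was -0.01, -0.02 and -0.03. Of 10 same-number pairs, 5, 5 and 7 had an r over 0.1, and whether the numbers pair mice was not tested. Leaving out haloperidol 2, haloperidol 7 or control 1 gave 0 in each comparison. With the cluster block, differences changed sign for Islr (-0.098) and Eomes (-0.085) in clozapine against control, for Doc2g (-0.053), Meis2 (-0.12), Eomes (-0.085) and its second probe set (-0.11) in haloperidol against control, and for Eomes (0.00059) in clozapine against haloperidol. Meis2 in haloperidol against control was -0.058 with the 3' minus 5' covariate and -0.042 without control 1, Doc2g was -0.0060 and Meis2 0.14 without the 3 outlying arrays, and Eomes in clozapine against haloperidol was 0.018 without haloperidol 2. Without haloperidol 7, Doc2g in haloperidol against control was 0.54 and Eomes in clozapine against haloperidol -0.19. Of 10 pairs, 3 passed the permutation test in the full set, 5 with the 3' minus 5' difference removed, 6 without the 3 arrays, 0 in cluster A and 9 in cluster B. With the second Eomes probe set, Islr and Eomes no longer passed (r = 0.28), while Meis2 and Eomes did (r = 0.69). The r of Reln and Meis2, -0.0059 in the full set, was 0.0030 with group means kept, 0.20 after quantile normalization, 0.16 with the 3' minus 5' difference removed, 0.13 without the 3 arrays, 0.027 without the 2 farthest, 0.92 in cluster B and 0.55 in C. Islr and Meis2, -0.14 in the full set, had 0.86 in B, 0.72 in C and 0.071 without the 2 farthest arrays. In cluster A, Islr and Reln had -0.038 and Meis2 and Eomes -0.046. The causes were not tested. Omp, Cyp2g1 and the other mucosal genes lie near background in most mice, where GCRMA values carry little information.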
